A study of Mus musculus with 6 samples.

Results

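The respiratory chain is the set of protein complexes in the inner mitochondrial membrane that passes electrons from nutrients to oxygen and uses the energy to make ATP. Complex I takes electrons from NADH, complex II from succinate, complex III hands them to cytochrome c and complex IV to oxygen, and complex V, the ATP synthase, is driven by the proton gradient that results. Most subunits are encoded in the nucleus and a small set in the mitochondrial DNA, whose strands are each transcribed as one long RNA and then cut into single mRNAs. In cells short of oxygen, Cox4i2 and Ndufa4l2 are known to be made in place of, or beside, Cox4i1 and Ndufa4.

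The genes described here are the protein-coding genes whose symbols begin with Ndufa, Ndufb, Ndufc, Ndufs or Ndufv and a digit, Uqcr, Cox followed by 4 to 8, or Atp5, with the genes Sdha to Sdhd and the 13 protein-coding genes of the mitochondrial genome. This rule found 98 of the 55335 genes in the table. Of these, 85 were nuclear (37 of complex I, 4 of complex II, 8 of complex III, 18 of complex IV and 18 of complex V) and 13 mitochondrial (7 of complex I, 1 of complex III, 3 of complex IV and 2 of complex V). The rule passes over 2 further subunits, Ndufab1 of complex I and Cyc1 of complex III, which are given with the further genes below, and it takes in Atp5s, a protein related to ATP synthase by name.

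The cells were MEF, fibroblasts grown from the mouse embryo, of wild-type genotype. Confine cells were those that had crossed a membrane with 3 μm pores by 15 h after seeding, and Ctrl cells were the parental culture, so passage through the pores cannot be told apart from selection of the cells able to cross. Polyadenylated RNA was sequenced in 3 libraries for each group, but the columns of Confine replicates 1 and 2 held the same count in all 55335 genes and were counted as 1 sample, called the repeated Confine library here, which left 3 Ctrl and 2 Confine libraries. The labels do not say whether replicates came from separate cultures, so p-values measure the spread between these samples only. Total counts were 27853805, 24450853 and 22287210 in Ctrl replicates 1, 2 and 3, 32537550 in the repeated Confine library and 27290138 in Confine replicate 3. The fibroblast label was checked against 10 markers, whose summed level was between 8745 and 9601 normalized CPM (the count scaled to the size of its library) in Ctrl and between 15725 and 16506 in Confine, with Thy1 near 0 in all libraries. Leukocyte markers summed to between 7.22 and 8.39 CPM in Ctrl and between 18.3 and 25.9 in Confine, and Ptprc, Adgre1 and Cd3e were at or near 0. All 3 leukocyte markers that could be tested passed in edgeR: Cd68, of lysosomes, and Csf1r, a receptor of macrophages, were higher in Confine (log2 fold changes of 2.67 and 1.45), and Lyz2, a lysozyme, was lower (-2.64). Endothelial, epithelial and germ cell markers were at or near 0 in every library. Muscle markers, of which Des alone was tested, summed to between 3.63 and 4.33 CPM in Ctrl and between 9.11 and 12.9 CPM in Confine. The part of other cell types in the results was not tested.

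Most respiratory chain mRNAs moved little. Of the 98 genes, 95 had a count in some library and 92 passed the filter on low counts, and a gene passed the test at an adjusted p under 0.05 in edgeR's quasi-likelihood test, adjusted over all 15881 genes tested. By this rule 10 of the 92 changed, which is 10.9% beside 23.0% of all tested genes. Of these, 4 were higher in Confine, where 12.8% of all tested genes were, and 6 were lower, where 10.2% were. The log2 fold change of Confine over Ctrl was within 0.5 of 0 in 80 of the 92, and in 59.2% of all tested genes. Its median was -0.10 over the 92, -0.09 over the 79 nuclear and -0.28 over the 13 mitochondrial genes (-0.059 without Ctrl replicate 1 and -0.51 without the repeated Confine library), beside -0.0021 over all tested genes. The groups did not overlap in 39 of the 92 (49.5% of all tested genes), where all values of the Confine libraries lay below all those of Ctrl in 29 (23.6% of all tested genes) and above them in 10 (25.9% of all tested genes). With a fold change above 1.5 on the log2 scale required as well, Ndufv3 was called higher (4.89% of all tested genes were) and mt-Nd3 lower (3.11% were). In bulk RNA, fewer cells of a type and less RNA per cell cannot be told apart.

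**Figure D1:**
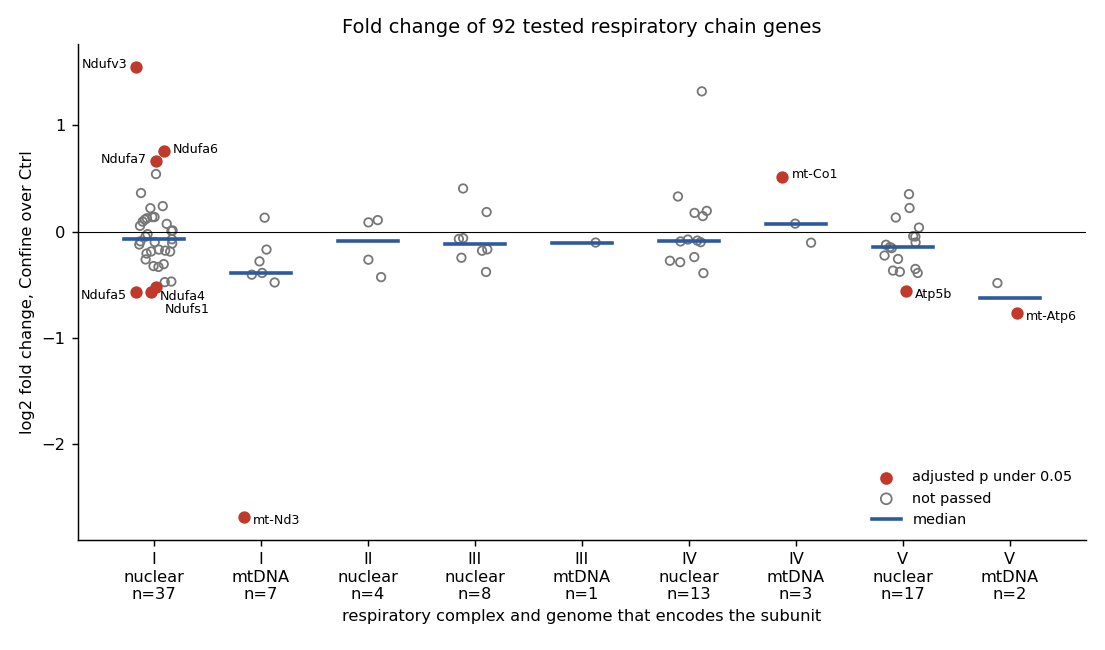
The log2 fold change of Confine over Ctrl (vertical axis) of each of the 92 tested genes, by complex and by the genome that encodes it, with filled points for an adjusted p under 0.05 and blue bars for medians. All nuclear medians lie between -0.15 and -0.07, and Ndufv3 at 1.55 and mt-Nd3 at -2.69 stand farthest from 0.

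The fit on library sizes alone left out the TMM factors, which correct for a few genes taking a large share of the reads. It moved the median of all genes by -0.21 and gave 2 higher and 19 lower members. Of the changed members, 9.52% were higher in place of 40.0%, and 26.8% of all tested genes passed in place of 23.0%. The nuclear median lay below the median of all genes in every alternative run, by between 0.021 and 0.173 in size. The median log2 fold change of the nuclear members was -0.038 with the repeated Confine library left out. It was -0.19 with Confine replicate 3 left out. Without Ctrl replicate 3, 3 members were higher and 3 lower, and 22.2% of all tested genes passed. When a Confine library was left out, the single remaining Confine library was assumed to vary like the Ctrl libraries, and Ndufv3 passed in each of these fits.

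Ndufv3, an accessory subunit in the NADH-binding module of complex I, rose most among the nuclear members. Its normalized level was 145, 176 and 189 CPM in Ctrl replicates 1, 2 and 3, 452 CPM in the repeated Confine library and 547 CPM in Confine replicate 3. Both Confine libraries lay far above the highest Ctrl library. This was a rise of 2.93-fold, a log2 fold change of 1.55 (SE 0.184), with an adjusted p of 5.57e-06 in edgeR's test. It passed in 17 of 17 alternatives, with log2 fold changes between 1.34 and 1.69. Among them, the alternative without members that have a near-identical copy repeats its main values. Ndufv1 and Ndufv2 of the NADH-binding module did not pass the test. Ndufv1, which carries the flavin, had a log2 fold change of -0.33 (adjusted p = 0.196 in edgeR), and Ndufv2, which carries an iron-sulfur cluster, one of -0.19 (adjusted p = 0.481 in edgeR). Within each library, which removes the scaling between libraries, the count of Ndufv3 over that of Ndufv1 was 0.606, 0.824 and 0.767 in Ctrl and 2.56 and 2.82 in Confine. Ndufv3 lies on mouse chr17:31520115-31531331 (GRCm38), 135 bp from the neighbouring gene Wdr4, whose log2 fold change was -0.51 (adjusted p = 0.0965 in edgeR).

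Ndufa6, an accessory subunit of the arm of complex I that meets the membrane, rose too. Its level was 116, 138 and 157 CPM in Ctrl, 193 CPM in the repeated Confine library and 270 CPM in Confine replicate 3. The groups did not overlap, and the Confine libraries lay farther apart than the Ctrl libraries. Its log2 fold change was 0.76 (SE 0.196, adjusted p = 0.00824 in edgeR), and without Confine replicate 3 it was 0.49 (adjusted p = 0.232).

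Ndufa7, another accessory subunit of complex I, was at 268, 345 and 310 CPM in Ctrl, at 430 CPM in the repeated Confine library and at 543 CPM in Confine replicate 3. Again both Confine libraries lay above all Ctrl libraries. In log2 units the change was 0.66 (SE 0.185, adjusted p = 0.0140 in edgeR), and it lost the call without Ctrl replicate 1 (adjusted p = 0.0796) and without Confine replicate 3 (adjusted p = 0.207). Ndufa7 starts 10 bp from Rps28, a gene of the small ribosomal subunit, whose log2 fold change was 0.34 (adjusted p = 0.195 in edgeR). The count of Ndufa7 over that of Rps28 was 1.29, 1.35 and 1.16 in Ctrl and 1.5 and 1.64 in Confine.

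**Figure D2:**
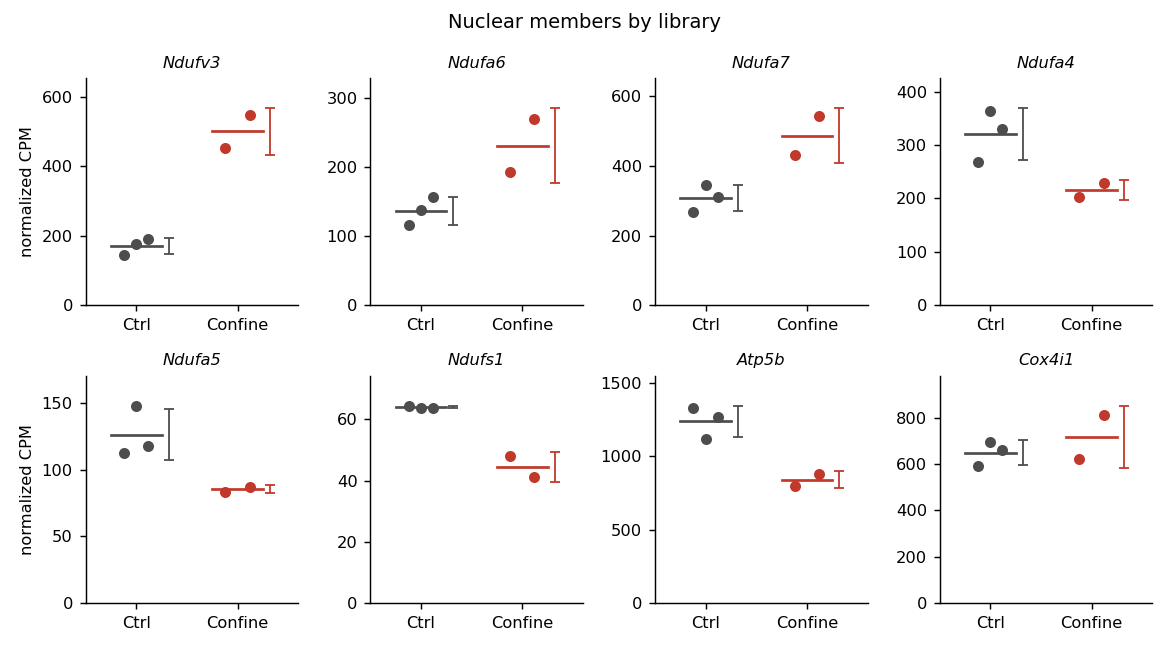
Normalized CPM (vertical axis, from 0) of the 7 nuclear members that passed the test and of Cox4i1 in each library, with points for libraries, bars for group means and whiskers for 1 SD. The 2 Confine libraries lie above the 3 Ctrl libraries for Ndufv3, Ndufa6 and Ndufa7, below them for Ndufa4, Ndufa5, Ndufs1 and Atp5b, and overlap them for Cox4i1.

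The upstream sequences of the 3 nuclear members that rose are shown so that they can be read beside the genes linked to oxygen further on. They are the 250 bases before the start site in RefSeq (GRCm38), read 5′ to 3′ on the strand of the gene. Capitals mark the core of the hypoxia response element, searched as ACGTG or GCGTG on both strands, so that CACGTG counts once on each strand. The window of Ndufv3 is chr17:31519865-31520114 on the plus strand, that of Ndufa7 is chr17:33824322-33824571 on the plus strand and that of Ndufa6 is chr15:82354292-82354541 on the minus strand.
Ndufv3: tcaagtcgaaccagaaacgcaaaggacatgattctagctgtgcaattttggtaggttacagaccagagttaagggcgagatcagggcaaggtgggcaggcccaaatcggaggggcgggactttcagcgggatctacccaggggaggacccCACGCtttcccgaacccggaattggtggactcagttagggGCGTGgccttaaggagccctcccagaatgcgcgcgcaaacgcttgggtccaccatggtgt
Ndufa7: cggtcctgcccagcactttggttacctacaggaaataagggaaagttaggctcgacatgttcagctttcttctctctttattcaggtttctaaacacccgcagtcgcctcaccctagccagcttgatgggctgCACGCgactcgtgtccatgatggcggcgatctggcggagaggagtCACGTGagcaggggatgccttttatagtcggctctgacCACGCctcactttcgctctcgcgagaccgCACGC
Ndufa6: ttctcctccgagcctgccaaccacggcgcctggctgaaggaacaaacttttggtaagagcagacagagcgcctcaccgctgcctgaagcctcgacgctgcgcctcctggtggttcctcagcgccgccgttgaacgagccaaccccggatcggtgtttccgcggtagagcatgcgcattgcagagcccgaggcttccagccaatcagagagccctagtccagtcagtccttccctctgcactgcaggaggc
The windows of Ndufv3 and Ndufa7 reach into the genes Wdr4 and Rps28 on the other strand, which lie 135 bp and 10 bp away. The core was found 2 times before Ndufv3, 5 times before Ndufa7 and 0 times before Ndufa6. Among the members that fell, it was found 1 time before Ndufa5 and 0 times before Ndufa4 and Atp5b. An upstream window was at hand for 66 of the 98 genes, and 34 of them (51.5%) held the core, beside 38.6% of all 32851 windows of this length. The NRF1 motif (GCGC, any base N, then TGCGC), bound by a regulator of respiratory chain genes, was in 12 of the 66 (18.2%) and in 3.74% of all windows. The ETS motif CCGGAAG was in 11 (16.7%) and in 6.91% of all windows, and CCAAT, bound by the factor NF-Y, in 29 (43.9%) and in 33.8% of all windows, each on both strands. These are matches of letters and were not tested.

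Of the nuclear complex I members, 3 fell. Ndufa4, long counted with complex I and now known as a subunit of complex IV, was at 268, 364 and 329 CPM in Ctrl, at 202 CPM in the repeated Confine library and at 229 CPM in Confine replicate 3. Ndufa5, an accessory subunit of the arm outside the membrane, was at 112, 148 and 118 CPM in Ctrl and at 83.0 and 87.3 CPM in Confine. Ndufs1, the largest core subunit and a carrier of iron-sulfur clusters, was at 64.5, 63.9 and 63.8 CPM in Ctrl and at 47.9 and 41.1 CPM in Confine. For each of the 3, both Confine libraries lay below all Ctrl libraries. The log2 fold changes were -0.57 for Ndufa4 (adjusted p = 0.0359), -0.57 for Ndufa5 (adjusted p = 0.0360) and -0.53 for Ndufs1 (adjusted p = 0.0434), all in edgeR's test, and all 3 lost the call when either Confine library was left out. Ndufa4 and Ndufs1 also lost it without Ctrl replicate 3 (adjusted p = 0.0710 and 0.0649), Ndufa4 without Ctrl replicate 2 (adjusted p = 0.0505) and Ndufs1 without Ctrl replicate 1 (adjusted p = 0.118). Ndufs1 shares ground with Eef1b2 on the other strand, which had 288139 counts over the 5 libraries, and the strand setting of the counting is not given in the sources used here.

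Over the 37 nuclear complex I genes, Ndufa4 included and all of them tested, 3 rose, 3 fell and 31 did not pass. The share that passed was 16.2%, beside 23.0% of all tested genes, and the median log2 fold change was -0.07. The 7 core subunits, which carry out the electron transfer, had a median of -0.19, with 5 of them lower in both Confine libraries than in all Ctrl libraries, as were 23.6% of all tested genes. The 30 accessory subunits had a median of -0.01. The summed level per kilobase of transcript of the nuclear complex I genes was 6541, 7830 and 7393 RPKM (CPM divided by the transcript length in kilobases) in Ctrl and 6926 and 7805 RPKM in Confine. The groups overlapped, with a ratio of Confine to Ctrl of 1.02. In Ctrl the nuclear gene with the highest level per length was Ndufa7 at 583 RPKM, and the lowest was Ndufa4l2 at 0.301 RPKM.

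The 4 genes of complex II, which is also an enzyme of the citric acid cycle, did not pass the test. Sdha, the flavin-carrying subunit, was at 344, 263 and 338 CPM in Ctrl and at 232 and 235 CPM in Confine, with a log2 fold change of -0.43 (adjusted p = 0.107 in edgeR). Sdhb, the iron-sulfur subunit, had a log2 fold change of -0.27 (adjusted p = 0.300 in edgeR). Both lay below Ctrl in both Confine libraries. The membrane anchors Sdhc and Sdhd had log2 fold changes of 0.09 and 0.11, and their groups overlapped. Summed per length, complex II was at 590, 555 and 596 RPKM in Ctrl and at 507 and 504 RPKM in Confine. The groups did not overlap, with a ratio of 0.871. Sdhb had the highest level per length in Ctrl at 337 RPKM and Sdhc the lowest at 32.8 RPKM.

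Of the 8 nuclear genes of complex III, none passed the test in edgeR, with 1 at an unadjusted p under 0.05, and the median log2 fold change was -0.12. The lowest value was that of Uqcrc1, a core subunit, at -0.38 (adjusted p = 0.157), and the highest that of Uqcrh, the hinge protein, at 0.40 (adjusted p = 0.143). Uqcrfs1, the Rieske iron-sulfur protein, had the lowest level per length in Ctrl at 25.2 RPKM, and Uqcr11 the highest of the nuclear genes at 559 RPKM. The groups overlapped in the summed level, with a ratio of 0.908.

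Of the 18 nuclear genes grouped with complex IV by symbol, 13 were tested. None passed in edgeR, with 0 also at an unadjusted p under 0.05 and 0 in DESeq2 and in limma-voom. Ndufa4, which is counted with complex I by its symbol, is left out here and fell, at -0.57 (adjusted p = 0.0359 in edgeR). Without Ndufa4, the median log2 fold change was -0.09 and the ratio of summed levels 1.04. Cox8a had the highest level per length of the nuclear genes in Ctrl at 928 RPKM. Cox5a, a core structural subunit, stood far below the other ubiquitous subunits at 9.74 RPKM, with counts of 206, 178 and 118 in Ctrl and of 103 and 155 in Confine.

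The paralogs linked to low oxygen did not appear in place of the common forms. Cox4i2 had 13, 4 and 6 counts in Ctrl, 9 in the repeated Confine library and 3 in Confine replicate 3, which was too few for the filter. Cox4i1, the common form, had 17152, 18390 and 15573 counts in Ctrl and 18477 and 20485 in Confine. The groups overlapped for both genes, and Cox4i1 had a log2 fold change of 0.15 (SE 0.184, adjusted p = 0.630 in edgeR), and of -0.063 on library sizes alone and -0.060 without Confine replicate 3. Ndufa4l2 had 5, 2 and 14 counts in Ctrl and 13 and 9 in Confine. Its log2 fold change was 0.54 (SE 0.756, adjusted p = 0.667 in edgeR), with overlapping groups. Ndufa4l2 shares ground with Shmt2 on the other strand, a gene with 28355 counts over the 5 libraries that fell by 1.81 on the log2 scale.

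Forms of complex IV subunits known from muscle and testis were also at or near 0. Cox7a1, a muscle form, had 2, 5 and 7 counts in Ctrl and 13 and 12 in Confine. Both Confine libraries were higher, but the log2 fold change of 1.32 (SE 0.713) did not pass (adjusted p = 0.204 in edgeR). Cox6a2, another muscle form, had between 11 and 16 counts in every library. The testis form Cox6b2 had 0 counts in each Ctrl library and 3 in each Confine library, and Cox8c had at most 2. Cox7b2 and Cox8b had 0 counts in every library, where 3 counts, the limit that a count of 0 allows, correspond to between 0.101 and 0.127 CPM for counting error only. The common forms Cox6a1, Cox6b1, Cox7a2, Cox7b and Cox8a had log2 fold changes between -0.29 and 0.19, none of which passed. Cox7a2l, which helps to join complexes III and IV, had 0.33 (adjusted p = 0.221 in edgeR).

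**Figure D3:**
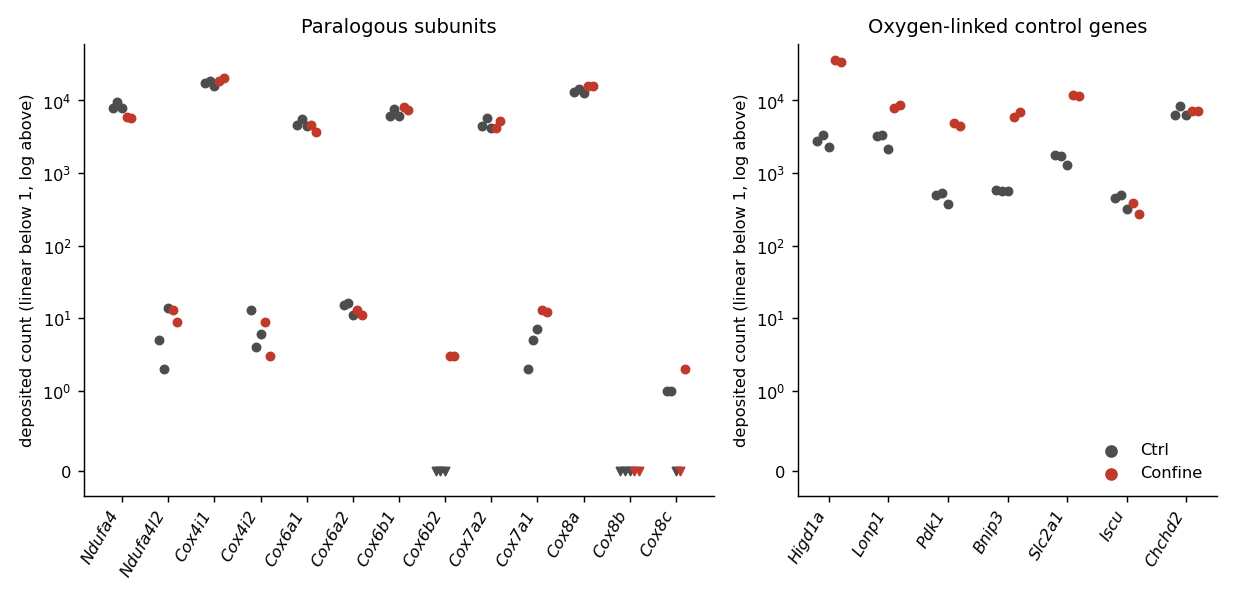
Deposited counts (vertical axes, linear below 1 and log above) in each library of paralogous subunits (left) and of genes through which oxygen is known to act on respiration (right), with triangles for a count of 0. Cox4i2 stays between 3 and 13 counts and Ndufa4l2 between 2 and 14, while Higd1a reaches 35747 in the repeated Confine library.

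In complex V, Atp5b fell. This gene, which encodes the catalytic beta subunit, was at 1327, 1119 and 1264 CPM in Ctrl, at 798 CPM in the repeated Confine library and at 882 CPM in Confine replicate 3. Both Confine libraries lay well below the lowest Ctrl library. The log2 fold change was -0.56 (SE 0.180, adjusted p = 0.0311 in edgeR), and the call was lost without Ctrl replicate 1 (adjusted p = 0.114), without Ctrl replicate 3 (adjusted p = 0.0824) and without either Confine library. Atp5a1, the alpha subunit that alternates with it in the catalytic head, was at 1176, 939 and 1183 CPM in Ctrl and at 803 and 887 CPM in Confine, with a log2 fold change of -0.38 (adjusted p = 0.153 in edgeR). The count of Atp5b over that of Atp5a1 was 1.13, 1.19 and 1.07 in Ctrl and 0.994 in both Confine libraries, which put both below every Ctrl library. The 3 genes of the c ring, which turns as protons pass, split in direction with none passing: Atp5g1 had a log2 fold change of -0.39 and Atp5g3 of -0.37, while Atp5g2 had 0.35. Among all 17 nuclear genes of complex V that were tested, 1 fell and 16 did not pass, the median was -0.15, and 7 lay below Ctrl (23.6% of all tested genes) and 2 above it (25.9%) in both Confine libraries. Summed per length, the nuclear complex V genes were at 4813, 5083 and 5112 RPKM in Ctrl and at 4250 and 4622 RPKM in Confine, without overlap and with a ratio of 0.887. Atp5g3 had the highest level per length in Ctrl at 779 RPKM and Atp5s the lowest of those tested at 2.96 RPKM.

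The 13 mitochondrial genes took 0.707%, 0.614% and 0.614% of all counts in Ctrl and 0.670% and 0.572% in Confine. Of the 13, 1 rose and 2 fell, so that 23.1% passed, beside 23.0% of all tested genes. They were counted very unevenly along one genome. Over the 5 libraries mt-Co1 had 274 counts per base, mt-Nd1 134 and mt-Cytb 107, while mt-Co2 had 1.5, mt-Co3 2.17, mt-Atp6 1.63, mt-Nd3 1.39, mt-Nd4l 0.623 and mt-Atp8 0.279. All of these but mt-Atp8 have a copy of nearly their whole length on chromosome 1 at an identity of 99.7% or more (Gm28661 for mt-Co2, Gm28437 for mt-Co3, Gm10925 for mt-Atp6, Gm28438 for mt-Nd3 and Gm10222 for mt-Nd4l). A read that matches both places can be counted at either or at neither, and how such reads were handled is not given in the sources used here.

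The sequences show how little there is to tell mt-Nd3 from its copy, which matters because mt-Nd3 had the largest fold change of all members. Over 345 aligned bases the 2 genes differ at 1 base, the third of the gene, in capitals in the first 33 bases below. The mitochondrial sequence is chrM:9459-9491 on the plus strand and the copy chr1:24613087-24613119 on the minus strand (GRCm38, GENCODE M21).
mt-Nd3: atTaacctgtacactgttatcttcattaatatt
Gm28438: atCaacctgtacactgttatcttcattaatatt
mt-Co1 differs from its partial copy Gm29216 at 1 of 483 aligned bases, in capitals in the 34 bases at chrM:6390-6423 on the plus strand and chr1:24616155-24616188 on the minus strand.
mt-Co1: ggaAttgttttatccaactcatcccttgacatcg
Gm29216: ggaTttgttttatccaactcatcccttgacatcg
mt-Atp6, mt-Co2 and mt-Co3 differ from Gm10925, Gm28661 and Gm28437 at 0 of 678, 681 and 783 aligned bases.

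mt-Co1, the catalytic core of complex IV, rose. Its level was 3104, 2487 and 2438 CPM in Ctrl, 3930 CPM in the repeated Confine library and 3733 CPM in Confine replicate 3. Both Confine libraries lay above all Ctrl libraries. The log2 fold change was 0.52 (SE 0.180, adjusted p = 0.0452 in edgeR), close to the threshold, and it passed in 7 of 16 alternatives. The call was lost without Ctrl replicate 2 (adjusted p = 0.0856), without Ctrl replicate 3 (adjusted p = 0.211), without the repeated Confine library (adjusted p = 0.125) and without Confine replicate 3 (adjusted p = 0.0813). With the counts of its copies added, the groups still did not overlap, at 3178, 2520 and 2457 CPM against 3997 and 3801 CPM. mt-Nd1, which is cut from the same strand and encodes a complex I core subunit with no copy found, was at 1090, 1091 and 981 CPM in Ctrl and at 868 and 741 CPM in Confine, with a log2 fold change of -0.39 (adjusted p = 0.130 in edgeR). The count of mt-Co1 over that of mt-Nd1 was 2.85, 2.28 and 2.49 in Ctrl and 4.53 and 5.04 in Confine. Over the summed counts of mt-Nd1, mt-Nd2, mt-Nd4, mt-Nd5 and mt-Cytb it was 0.871, 0.824 and 0.752 in Ctrl and 1.19 and 1.58 in Confine. Both ratios were higher in each Confine library than in every Ctrl library, so the mitochondrial mRNAs changed unequally within a library. mt-Co2 and mt-Co3, the other mitochondrial subunits of complex IV, had log2 fold changes of 0.07 and -0.11, at counts between 153 and 410, and did not pass. mt-Cytb of complex III was at 995, 832 and 967 CPM in Ctrl and at 1081 and 652 CPM in Confine, where the 2 Confine libraries lay on either side of Ctrl.

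mt-Nd3, a complex I subunit, had 93, 321 and 22 counts in Ctrl, 25 in the repeated Confine library and 21 in Confine replicate 3. Ctrl replicate 3 was at the level of Confine, and Ctrl replicate 2 was far above all others. On the log2 scale the change was -2.69 (SE 0.699, adjusted p = 0.00855 in edgeR), and without Ctrl replicate 2 it was -1.32 (adjusted p = 0.0818). The call was also lost without the repeated Confine library (adjusted p = 0.0943) and without Confine replicate 3 (adjusted p = 0.0922). The count of mt-Nd3 over that of its copy Gm28438 was 0.608, 2.24 and 0.0636 in Ctrl and 0.0786 and 0.0814 in Confine. Added together, the gene and its copy were at 8.49, 17.5 and 15.6 CPM in Ctrl and at 11.6 and 11.1 CPM in Confine. The groups then overlapped, and with the copies added in the fit the log2 fold change was -0.29 (adjusted p = 0.472 in edgeR).

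mt-Atp6, the subunit of complex V that forms the proton path, had 208, 357 and 220 counts in Ctrl and 172 and 150 in Confine. Both Confine libraries lay below Ctrl. The log2 fold change was -0.77 (SE 0.268, adjusted p = 0.0464 in edgeR), and it was -0.52 with the counts of its copy added (adjusted p = 0.128) and -0.49 without Ctrl replicate 2 (adjusted p = 0.129). Without the repeated Confine library the adjusted p was 0.207, and without Confine replicate 3 it was 0.197. mt-Atp8, which overlaps it, had between 8 and 15 counts in every library. mt-Nd6, the one mRNA made from the other strand and known to lack a long poly(A) tail, was at 97.0, 120 and 98.5 CPM in Ctrl and at 96.3 and 62.4 CPM in Confine, with a log2 fold change of -0.41 (adjusted p = 0.176 in edgeR). The remaining complex I genes mt-Nd2, mt-Nd4, mt-Nd4l and mt-Nd5 had log2 fold changes between -0.48 and 0.13, with overlapping groups. Summed per length, the mitochondrial genes of complex I were at a ratio of 0.811 without overlap, that of complex III at 0.931 with overlap, those of complex IV, nearly all of it mt-Co1, at 1.42 without overlap and those of complex V at 0.604 without overlap.

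**Figure D4:**
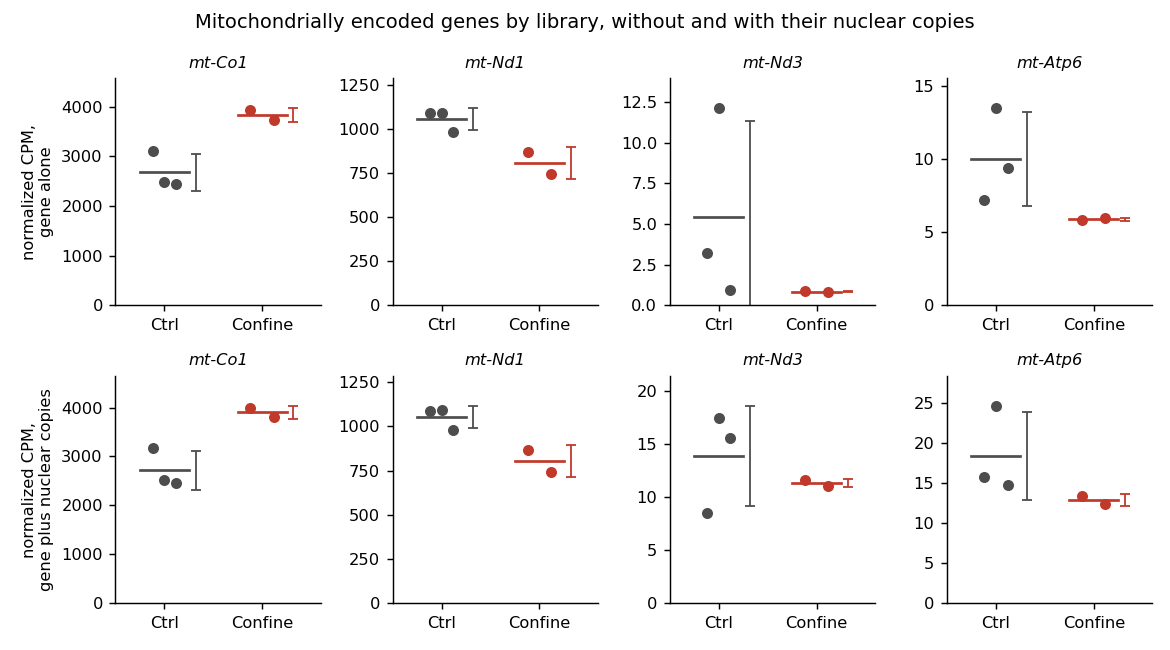
Normalized CPM (vertical axes, from 0) of mt-Co1, mt-Nd1, mt-Nd3 and mt-Atp6 in each library, for the gene alone (top) and with the counts of its nuclear copies added (bottom), with bars for means and whiskers for 1 SD, cut at 0 for mt-Nd3. For mt-Nd3 the groups separate in the top row by a small margin only, with Ctrl replicate 3 at the level of Confine. They overlap in the bottom row, while mt-Co1 stays higher in both Confine libraries in each.

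Of the genes through which oxygen is known to act on respiration, 7 were tested, 5 rose and 0 fell, beside 12.8% and 10.2% of all tested genes, with a median log2 fold change of 2.84. These genes are named with their values known. Higd1a, an inner membrane protein that binds complexes III and IV, had 2782, 3296 and 2290 counts in Ctrl, 35747 in the repeated Confine library and 34113 in Confine replicate 3. Both Confine libraries lay far above all Ctrl libraries, at a log2 fold change of 3.59 (SE 0.191, adjusted p = 2.49e-10 in edgeR). Bnip3, a receptor for removal of mitochondria, had a log2 fold change of 3.46. That of Pdk1, a pyruvate dehydrogenase kinase, was 3.26 and that of Slc2a1, a glucose transporter, 2.84. Lonp1, a matrix protease linked to the turnover of the Cox4i1 protein in low oxygen, had 3256, 3313 and 2142 counts in Ctrl and 7767 and 8785 in Confine, a log2 fold change of 1.48 (SE 0.193, adjusted p = 1.63e-05 in edgeR). Iscu, an iron-sulfur scaffold, and Chchd2, a regulator of Cox4i2, had log2 fold changes of -0.41 and -0.02 and did not pass.

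Among the other genes of the pathway, 1 of 15 tested assembly factors of complex I rose, Ndufaf1 at a log2 fold change of 0.87, and 2 fell, Ndufaf4 at -1.02 and Ndufaf2 at -0.59. Of 21 tested for complex IV, Higd1a rose, and Cmc2 at -0.88 and Coa7 at -0.63 fell. Here 14.3% passed, again beside 23.0% of all tested genes. None of the 4 of complex II, 6 of complex III and 5 of complex V passed in edgeR, with 0, 0 and 2 at an unadjusted p under 0.05. Cycs, cytochrome c itself, had 6755, 7313 and 5024 counts in Ctrl and 5085 and 3827 in Confine and fell by 0.58 on the log2 scale (adjusted p = 0.0318 in edgeR). Ndufab1, the carrier protein of complex I, and Cyc1, cytochrome c1 of complex III, had log2 fold changes of -0.74 (adjusted p = 0.0541) and -0.36 (adjusted p = 0.199) in edgeR.

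Of 21 tested genes of other routes by which electrons enter, 2 fell (9.52%, beside 10.2% of all tested genes). They were Pdss1, which makes the tail of ubiquinone, at a log2 fold change of -1.06 and Etfb, an electron-transfer flavoprotein, at -0.54. Of 28 for mitochondrial DNA and RNA, 2 fell (7.14%, beside 10.2% of all tested genes). They were Tbrg4, which stabilizes mitochondrial mRNAs, at -0.74 and Tfam, which packs and transcribes the mitochondrial DNA, at -0.62. Of 8 tested regulators of mitochondrial biogenesis, Ppard rose at 0.97 and Ppargc1b, a coactivator of respiratory genes, fell at -0.89. The adenine nucleotide carrier Slc25a5 and the phosphate carrier Slc25a3, which supply complex V, fell at -0.74 and -0.69. They were the 2 that fell among 3 tested genes of uncoupling and nucleotide exchange, beside 10.2% of all tested genes. Over all lists, 7 of 120 tested genes rose, where 12.8% of all tested genes did, and 12 fell, where 10.2% did, with a median of -0.12.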

How the data were processed

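The authors deposited raw counts of reads per gene for 6 libraries, 3 labelled Ctrl and 3 Confine. The libraries were made from polyadenylated RNA, and the second strand of the cDNA had been removed. According to the submitters' processing notes, reads were handled with Trim Galore 0.6.10, HISAT2 2.1.0, SAMtools 1.5 and featureCounts on mm10. The strand setting and the handling of reads with several matches are not given in the sources used here. Of 55335 identifiers, 54587 matched GENCODE M21 (GRCm38) by full identifier and 55154 once version numbers were dropped. The number of unused value columns was 0. Rows with no gene name numbered 181 and stayed in the table as deposited, since each carries an identifier.

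Confine replicates 1 and 2, which held equal counts throughout, entered once. Genes were kept by filterByExpr, normalized by TMM (factors 1.04, 1.08 and 1.06 in Ctrl, 0.911 and 0.924 in Confine) and tested with edgeR 4.0.16 in R 4.3.3, with no replicate block, 3 residual degrees of freedom and Benjamini-Hochberg adjustment over 15881 genes. The study used DESeq2, which was run as an alternative (version 1.42.0), as was limma-voom (3.58.1). The planned design assumed different libraries throughout. Normalized CPM divide counts by the library size times the TMM factor, and RPKM divide them by the length of the longest principal transcript as well. Near-identical copies at 95% identity or more were found by aligning each member to all annotated transcripts with blastn 2.17.0, and a member with 300 aligned bp or more counted as having one. The reads carried no molecular identifiers, so the limit given for a count of 0 covers counting error only.

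The members and lists were chosen with earlier results of these data known, so no test was made over them. Named are the mitochondrial genes, the paralog groups and Ndufv3, every member that passed, the members with the highest and lowest level per length in each complex, and of each further list up to 2 passing genes per direction with the largest change. Cox5a, the neighbouring genes, Ndufv1, Ndufv2, Atp5a1, Uqcrc1, Uqcrh, Sdha, Sdhd and the genes of the oxygen list were named after their values were seen. In counts simulated over 15881 genes, 56.2% of genes changed by 1 on the log2 scale and 91.9% of those changed by 2 were recovered. Of the calls, 3.29% were false. The simulation changed 200 genes, where 3654 passed in the data, and gave genes of equal level the same spread. These rates therefore need not hold for the data. The fit with copies added was chosen after seeing the data, as was the total exon length for RPKM.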

Additional observations from a re-analysis of the deposited data

How the results depend on the processing

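The direction of the nuclear and mitochondrial medians was the same in every alternative run. Of the 10 members that passed, Ndufv3 passed in 17 of 17 alternatives, Ndufa6 in 15 and Ndufa5 in 14 of 17. These counts include the alternative that leaves out members with a near-identical copy. It repeats the main values of the members it keeps, so these 3 could only pass in it. On library sizes alone 21 members passed, 2 higher and 19 lower, beside 26.8% of all tested genes. The medians were -0.30 (nuclear) and -0.49 (mitochondrial). With the repeated columns counted as 2 samples, 18 passed, 14 of them lower, beside 33.4% of all tested genes. When a Ctrl library was left out, between 17.8% and 28.5% of all tested genes passed. Leaving out each library gave between 1 and 11 members passing, 1 to 4 higher and 0 to 7 lower, 0 to 2 with the fold cutoff, and mitochondrial medians of -0.51 without the repeated Confine library and between -0.33 and -0.059 without another one. Without members that have a near-identical copy, 6 passed, 3 of them lower. With the fold cutoff, 1 gene in place of 2 was called on library sizes alone, under both replicate blocks, with the repeated columns as 2 samples, with copies added, with members that have copies left out, in DESeq2 and in limma-voom. The gene was not always Ndufv3. Its log2 fold change was under 1.5 on library sizes alone (1.34) and with the repeated columns as 2 samples (1.49). It was also under 1.5 with the repeated library as number 2 of a block (1.44), without Ctrl replicate 1 (1.44) and without Confine replicate 3 (1.41). Where other values are given, the cause was not tested.

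With a replicate block, in which the repeated library carries number 2, 3 members passed, 1 higher and 2 lower. The share of all tested genes that passed was 15.9%. As number 1 the block gave 14 members, 5 higher and 9 lower, beside 31.1% of all tested genes. The labels do not say what a shared number means, and with 2 shared numbers the deviations correlated at -0.053 or 0.052, so the numbers are not taken to pair the samples. The block fit had 1 residual degree of freedom. Cox4i1 reversed on library sizes alone (-0.063) and without Confine replicate 3 (-0.060), and was at most 0.19 without one of the Ctrl libraries. Over the single named genes, 165 values kept direction and side of the threshold, 47 lost the call and 2 reversed. DESeq2 gave 4 higher and 7 lower members, where 13.2% of the 27065 genes in that run passed. With limma-voom 4 were higher and 5 lower, where 22.9% of all tested genes passed. With summed levels taken over all exons, the ratio of complex I was 0.983 in place of 1.02. Precision is limited by having 2 Confine libraries and, in mt-Atp8, Ndufa4l2 and Cox4i2, by counts of at most 15 per library.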
